A study of Mus musculus with 8 samples.

Results

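The baseline described here is the transcript profile of the 4 control diet samples, out of 8 samples in the series. The members are the genes that those 4 samples measured. Of 30028 gene names on the array, 18363 (61.2%) had at least 1 probe well above background on all 4 control arrays, and the brightest such probe stood for the gene. The samples were total RNA from cells that the labels call pancreatic beta cells, from C57BL/6 mice on chow. The labels call the samples biological replicates 1 to 4 and do not say what separates them, so every spread below is a spread between these samples. The mice carried no transgene or reporter that the labels name, and no source used here says by which method the cells were obtained. The other 4 samples, from C57BL/6 mice on a high-fat diet, enter only beside the spread of the control samples, as spreads and, for 2 genes, as levels.

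A pancreatic islet is a small cluster of endocrine cells within a gland that is mostly exocrine. Beta cells make insulin and islet amyloid polypeptide, alpha cells make glucagon, delta cells make somatostatin and PP cells make pancreatic polypeptide. All of them pack their hormones with granins into dense-core granules, where prohormone convertases and carboxypeptidase E cut the precursors. The acinar cells around the islets make digestive enzymes as zymogens, and these messages are among the most abundant of the whole gland.

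Each sample was labelled with Cy3 and hybridised to its own Agilent array of 43020 non-control spots, which hold 39429 probes of 60 bases. Levels are log2 of the processed signal, relative to the 75th percentile of the array, so that a level of 3 lies 3 doublings above that percentile. The 75th percentile ran from 335.8 to 715.4 intensity units, from 63.6% to 68.6% of spots rose well above background, and none was saturated. Replicates 1 and 2 lay on the first slide and replicates 3 and 4 on the second. Replicates 1 and 3 had array position 1 on their slide, and replicates 2 and 4 had position 3. The number of arrays, 4, limits the precision of every value. Brightness also depends on the probe. In the 4417 genes with several probes kept, the brightest and the next differed by a median of 1.53 on the log2 scale, so the order of genes below is an order of probe signals and not of transcript numbers.

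The genes at the top of the order came from endocrine granules and from the acinar secretory programme. The probe that reads insulin 1 (Ins1) covers the end of the coding sequence, with the stop codon in capitals, at chr19:52339385-52339444 on mm9. The probe that reads the acinar elastase Cela3b lies in coding sequence on the reverse strand of chr4:136979192-136979251. Both are shown because these genes stand for the endocrine and the exocrine signal in what follows.
Ins1 probe: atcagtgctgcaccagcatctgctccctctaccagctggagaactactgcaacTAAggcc
Cela3b probe: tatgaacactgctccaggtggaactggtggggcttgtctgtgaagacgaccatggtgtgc

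The level of Ins1 was 7.87, 8.43, 8.39 and 8.30 in replicates 1 to 4 (SD 0.26, n = 4), which ranked 11 of 18363. Ins2, the other insulin gene of the mouse, had 7.81, 8.05, 8.43 and 8.30 (SD 0.27, rank 18). Its probe is at chr7:149864566-149864625 on mm9, and the insulin probes shared no run of bases longer than 7. Both insulin genes were among the 18 brightest on these arrays, and their lowest sample was replicate 1 at this scaling. Their spread was close to that of the typical gene (0.23), where the brightest of 10 equal groups by level had a median of 0.19. In the deposited value table the islet hormones had a median SD of 0.22, against 0.11 for all genes. Islet amyloid polypeptide (Iapp), which is secreted with insulin, had 7.26, 7.52, 8.08 and 8.04 (SD 0.40, rank 41). Both arrays of the second slide were above both of the first for Iapp, as for Ins2.

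The hormones of the other islet cells were at a similar brightness. Glucagon (Gcg) had 7.66, 7.93, 8.14 and 7.93 (SD 0.20, rank 29), somatostatin (Sst) had 7.24, 7.10, 7.34 and 7.23 (SD 0.096, rank 68) and pancreatic polypeptide (Ppy) had 7.40, 6.83, 6.47 and 7.12 (SD 0.40, rank 96). Somatostatin was the steadiest of the 8 islet hormones listed. Peptide YY (Pyy), a hormone of PP and alpha lineages, had a mean of 6.57 (SD 0.24, rank 148). Ghrelin (Ghrl), the hormone of the rare epsilon cells, was far down the order, with 0.07, -0.98, -0.66 and -0.75 (SD 0.45, rank 9623). In samples of mixed RNA such as these, fewer cells of a type and less RNA per cell cannot be told apart. Which replicate was lowest moved with the scaling. Of the 8 hormones, 4 were lowest on replicate 1 at the 75th percentile scaling, against 27.9% of all genes, and 1 of 8 after quantile normalization.

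The brightest gene of all was chromogranin A (Chga), the main soluble protein of dense-core granules. Its levels were 8.70, 8.83, 8.70 and 8.66 (SD 0.072). Carboxypeptidase E (Cpe), which trims basic residues off prohormones, ranked 10 at 8.17, 8.32, 8.33 and 8.23 (SD 0.076). Prohormone convertase 2 (Pcsk2) ranked 21 at 8.01, 8.21, 8.09 and 8.02 (SD 0.094), and secretogranin 2 (Scg2) ranked 35. For these granule genes the samples lay close to each other. Convertase 1 (Pcsk1), the enzyme that starts proinsulin cleavage, was dimmer, at a mean of 4.34 (SD 0.28). Of the 15 granule and processing genes listed all were kept, with a median level of 6.22 and a median SD of 0.16, against -0.40 and 0.23 for all genes kept. The median SD of the list was 0.20 against 0.25 after median scaling, but 0.26 against 0.22 after quantile normalization. In the deposited value table it was 0.28 against 0.11, so the steadiness of the list depended on the scaling.

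**Figure D1:**
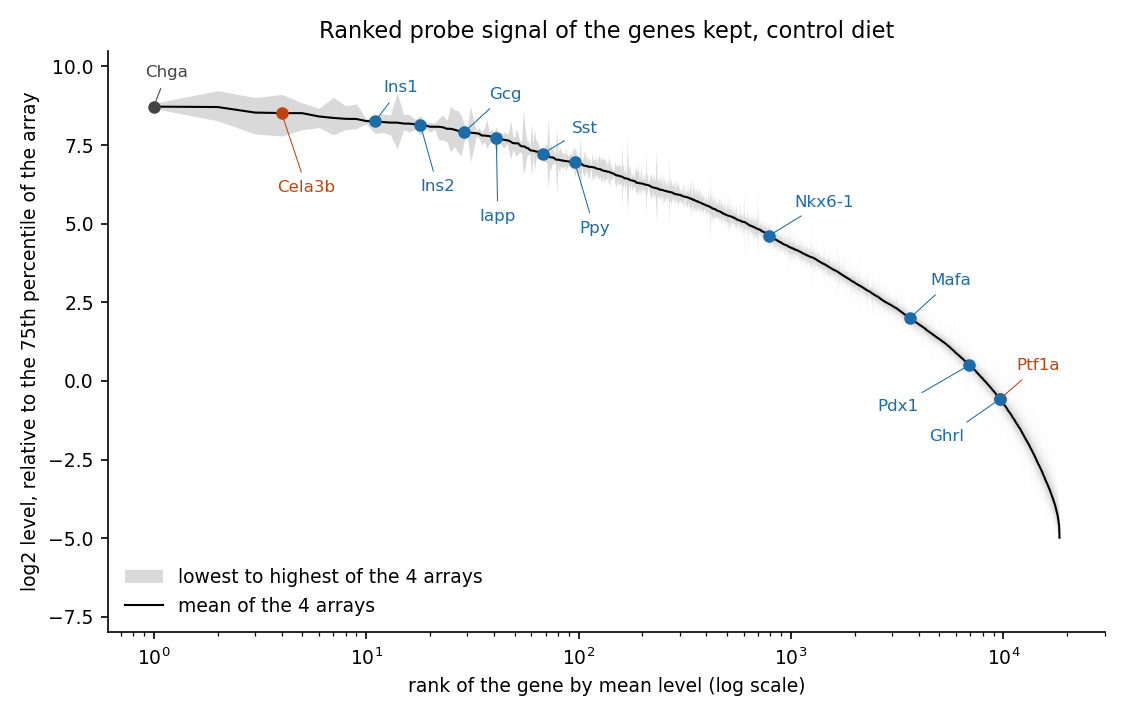
Mean log2 level of each of the 18363 genes kept against its rank on a log axis, with the range over the 4 control arrays in grey. Endocrine genes are marked in blue and acinar genes in red. The marked hormones other than Ghrl lie between 6.96 (Ppy) and 8.25 (Ins1), and Chga leads at 8.72.

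Acinar genes stood beside the hormones. Of the 25 brightest genes with a gene symbol, 11 belonged to the acinar list, 2 to the islet hormones and 3 to the granule list. Amylase (Amy2a5) ranked 2, bile salt lipase (Cel) 3, Cela3b 4, chymotrypsinogen B (Ctrb1) 5, carboxypeptidase B (Cpb1) 6 and trypsin 5 (Try5) 8. The label of the samples names beta cells, and all 20 acinar markers listed were well above background on every control array, at a median level of 7.94. Summed over the list, acinar signal was 3038, 4856, 6610 and 4536 times the 75th percentile in replicates 1 to 4. The sum over the 8 islet hormones was 1256, 1370, 1578 and 1519 on the same scale, which ranged by 1.26-fold while the acinar sum ranged by 2.18-fold.

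The other cell types listed were dimmer. Of 13 endothelial markers all were kept, at a median level of 0.18, led by the vascular genes Egfl7 (3.62), Kdr (3.57) and Plvap (3.17). Of 13 macrophage markers all were kept, at a median of -0.06, and of 13 lymphocyte markers all were kept, at a median of -1.60. Of 13 stellate cell and pericyte markers 12 were kept, at -0.51, and of 12 ductal markers 9 were kept, with Sox9, Cftr and Mmp7 left out. Adipocyte markers were mostly left out, as they were not well above background on all 4 arrays. Adipoq, the adipocyte hormone adiponectin, was well above background on none of the 4 arrays, and Fabp4 and Adig alone of 8 were kept. Of 6 red cell markers 4 were kept, at a median of -2.46. The brightest, alpha globin (Hba-a1), had 1.87, 2.48, 2.07 and 1.66, and Ahsp was at background on all 4 arrays. The non-coding Xist, which marks an inactive X chromosome, was well above background on none, while the Y-linked Ddx3y, Eif2s3y and Uty were kept. Kdm5d, also Y-linked, was not kept.

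The transcription factors that define the beta cell had lower signals than its products. Of 18 listed, 17 were kept, at a median level of 1.25 and a median SD of 0.20. Nkx6-1, needed for beta cell identity, had 4.93, 4.57, 4.44 and 4.52, and Insm1, a zinc finger factor of endocrine cells, had 5.20, 5.09, 5.09 and 5.13 (SD 0.05). Mafa, an activator of insulin transcription, had a mean of 2.00 (SD 0.15), and Pdx1, the pancreas master regulator, 0.51 (SD 0.21). Of the factors kept, 10 of 17 were highest on replicate 1, against 23.7% of all genes, and 10 of 17 were lowest on replicate 3, against 26% of all genes. Pax6, which endocrine cells need to make hormones, was the clearest case, at 2.10, 1.98, 1.20 and 1.98. Foxa1, a pioneer factor, was well above background on 1 array and so left out. Both counts stayed between 8 and 10 under every other scaling, background correction and probe choice that kept all 17 genes. Under those settings the share of all genes highest on replicate 1 ran from 18.7% to 26.9%. The share of all genes lowest on replicate 3 was not counted there, so a general shift of that array was not tested.

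The lists for the other islet cells held bright and dim genes. Of 10 alpha cell genes 9 were kept, at a median level of 0.78 and a median SD of 0.255, with Pcsk2 and Gcg the brightest. Transthyretin (Ttr), a thyroid hormone carrier that alpha cells secrete, had 5.96, 6.14, 6.34 and 6.40. All 9 delta and PP cell genes were kept, at a median level of 3.32, hormones included. The delta cell factor Hhex had -0.08, -0.20, 0.04 and 0.04 (SD 0.11).

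Several other parts of the beta cell programme were steady between samples at the 75th percentile scaling. The glucose transporter Slc2a2 had 4.13, 4.09, 4.19 and 4.14 (SD 0.041), and the beta cell phosphatase subunit G6pc2 a mean of 5.28 (SD 0.09). The zinc transporter Slc30a8, which loads insulin granules, had 6.22 (SD 0.16), and the channel subunit Abcc8, the sulfonylurea receptor, had 7.30, 7.03, 6.86 and 6.88 (SD 0.21). Of 34 respiratory chain genes all were kept, with a median SD of 0.13 and none at 0.5 or above, where 13.4% of all genes lay. Of 14 exocytosis genes and 13 glucose uptake and glycolysis genes, none reached 0.5 either, with median SDs of 0.17 and 0.18. In the brightest of 10 equal groups of genes by level 3.70% of genes reached 0.5, and in the next 3.43%. The median levels of these lists lie in those groups. In the deposited value table the median SDs were 0.13 for respiratory chain, 0.15 for exocytosis and 0.17 for glucose genes, against 0.11 for all genes. Neuropeptide Y (Npy) was the exception among the 14 beta cell markers, at -1.17, 0.27, -1.40 and 1.13 (SD 1.20). Replicates 2 and 4 were high for it and replicates 1 and 3 low, with no overlap.

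**Figure D2:**
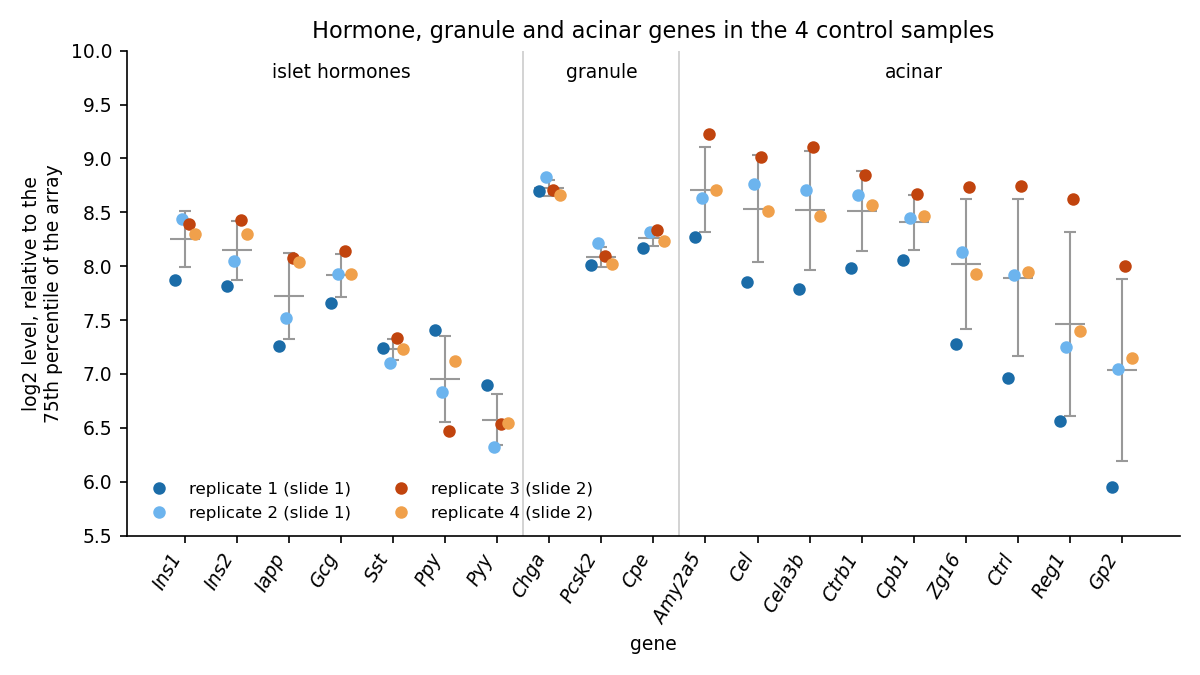
Log2 level of hormone, granule and acinar genes in each control sample (1 dot per array, coloured by replicate), with the mean and SD of the 4 arrays in grey. Chga, Pcsk2 and Cpe lie within 0.20 of each other between samples, while every acinar gene shown has replicate 3 on top and replicate 1 at the bottom.

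Some of the brightest rows carried names of genes that the pancreas is not known for, and their probes differed from the other probes of the same gene. Zfp628, a zinc finger gene, ranked 13 at 8.21, and its other kept probe read -0.49. Glrx2, a mitochondrial glutaredoxin, ranked 15 at 8.18, with other probes at 0.70 and -3.90. Kctd14 ranked 16 at 8.18, with other probes at -2.41 and -2.96. The ETS factor Elk1 and the liver bile acid transporter Slc10a1 ranked 17 and 20, and the other probe of each was well above background on none of the 4 arrays. The probes of the 200 brightest genes were then searched for the run of 12 bases that most of them shared. It was in 11 of the 200, and in no dimmer gene among the 18363. The next run was in 6 of the 200 and in 9 genes in all. A stretch of 30 bases of a probe is shown for each, with the shared run in capitals, because these runs mark rows whose name and signal may not belong together.
Medag probe, bases 8 to 37: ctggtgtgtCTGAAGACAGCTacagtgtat
Elk1 probe, bases 20 to 49: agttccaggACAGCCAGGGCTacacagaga
Both runs are known from short interspersed repeats of the mouse genome, the first from the B2 family and the second from the B1 family, which occur in many transcripts. The first run was in the probes of Pirb (7.76), Medag (7.71), Ppm1k (7.56), Pbld1 (7.49) and 7 others. The second was in those of Glrx2, Kctd14, Elk1, Ndor1 (7.67), Cxcl11 (7.65), Med16 (7.56) and 3 dimmer genes. With these 20 genes left out, Ins1 kept rank 11, Ins2 moved from 18 to 15, Gcg from 29 to 26, Iapp from 41 to 37 and Sst from 68 to 56. The runs were searched for after the ranking had been seen, and whether the repeats set these signals was not tested.

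The order of genes was much the same in every sample. Across the 18363 genes, which are not independent replicates, Pearson's correlation between arrays ran from 0.969 (replicates 1 and 3) to 0.989 (replicates 1 and 2). Of the 100 brightest genes on each array, 75 were shared by all 4 arrays, and 126 were in the 100 of at least 1 array. The whole range of levels was wide. Genes from the 10th to the 90th percentile lay between -3.47 and 3.28, 2148 genes (11.7%) were at 3 or above and 85 were at 7 or above. At the lower edge the cyclin-dependent kinase Cdk1, a cell cycle gene, was kept at a mean of -4.84. The ductal factor Sox9, at -5.19, -3.53, -2.99 and -3.61, was well above background on 3 arrays and was left out.

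The typical gene differed little between control samples. The SD of the log2 level over the 4 arrays had a median of 0.23, a 1.17-fold spread, and 10% of genes lay below 0.092 and 10% above 0.56. Within slides the median was 0.18, and over the 4 high-fat arrays it was 0.20. Of 10 equal groups of genes by level, the brightest had a median SD of 0.19 and the next 0.16, and from there the median grew with each dimmer group to 0.39. Spots of the same probe on 1 array were closer than arrays were. In the 261 kept probes printed 10 times, the median SD between spots was 0.075 and that between arrays 0.19, and 236 of the 261 varied more between arrays. Of the genes at a level of 3 or above, the steadiest were the GTPase Rhoa (3.02, 3.00, 3.01 and 2.99), the ubiquitin ligase Syvn1 (SD 0.018), the ubiquitin-conjugating Ube2b (SD 0.019) and the beta cell membrane protein Tmem27 (5.86, 5.87, 5.88 and 5.84).

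**Figure D3:**
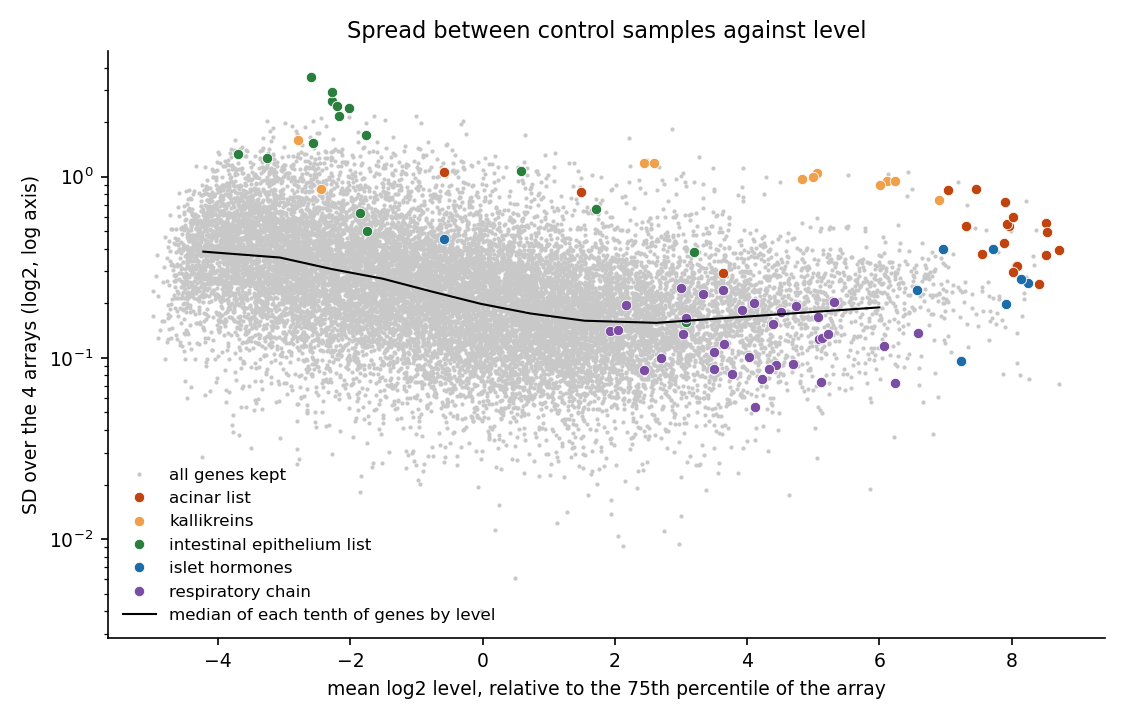
SD over the 4 control arrays on a log axis against the mean log2 level, for all 18363 genes kept (grey) and for 5 lists. The black line joins the medians of 10 equal groups of genes by level. Respiratory chain genes lie mostly below the line (median 0.13), and acinar genes (0.52), kallikreins (0.97) and intestinal genes (1.43) above it. The kallikrein and intestinal lists were written after values had been seen.

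Acinar genes were the brightest that varied. Of the 20 listed, 10 had an SD of 0.5 or above, against 13.4% of all genes and 3.70% of the brightest 1 of 10 equal groups, and the median SD was 0.52 against 0.23 for all genes. Cela3b had 7.79, 8.71, 9.11 and 8.46 (SD 0.55). Chymotrypsin-like protease Ctrl had 6.97, 7.92, 8.74 and 7.95 (SD 0.73), and the zymogen granule membrane protein Gp2 had 5.95, 7.04, 8.0 and 7.15 (SD 0.84). Replicate 3 was high, replicate 1 low and replicates 2 and 4 between them. That order held in 18 of the 20, against 17.6% of all genes. Replicate 3 was highest in 19 of 20, against 38.5% of all genes, and replicate 1 was lowest in 19 of 20, against 27.9%. Within the first slide replicate 2 was above replicate 1 in 20 of 20, against 50.6% of all genes, and within the second slide replicate 3 was above replicate 4 in 20 of 20, against 57.2%.

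Regulators of the acinar state were on the list too. Ptf1a, the factor that commits cells to the acinar fate, had -1.91, -0.62, 0.69 and -0.47 (SD 1.06), and its partner Rbpjl had 0.84, 1.16, 2.70 and 1.23 (SD 0.83). Bhlha15 (Mist1), which keeps the secretory state of acinar cells, varied less, at 3.42, 3.72, 4.03 and 3.40 (SD 0.30), with replicate 4 and not replicate 1 lowest. With replicate 3 left out the median SD of the list was 0.38, and with replicate 1 left out it was 0.32, above the all-gene medians of 0.19 and 0.22. The size of the pattern depended on the scaling. Replicate 3 was highest in 14 of 20 after median scaling, against 22.9% of all genes, in 12 after quantile normalization, against 31.2%, and in 14 in the deposited value table, against 31.9%. The median SD fell to 0.24 after quantile normalization, where that of all genes was 0.22, and to 0.26 in the deposited value table, where that of all genes was 0.11.

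Ctrb1 and the elastase Cela1 are shown with the 250 bases before their start sites because Ptf1a acts through a paired site, an E box followed by a TTTCC box. That pair, CANCTGNNNNTTTCC on both strands searched, was in these 2 of the 17 acinar genes that have a promoter in the table and not in the other 15, and they are shown for holding it. It was in 0.101% of 32544 RefSeq promoters of the same length. With 5 or 6 free bases between the boxes it was in none of the 17. Ctrb1 holds it from 205 to 191 bases before its start and Cela1 from 109 to 95. Cela1 also holds a TATAAA box, as do 6 of the 17 acinar genes and 12.3% of all promoters. The motif letters are in capitals, on GRCm38.p6, and TATAAA shares no base with the pair.
Ctrb1, chr8:111691011-111691260, reverse strand: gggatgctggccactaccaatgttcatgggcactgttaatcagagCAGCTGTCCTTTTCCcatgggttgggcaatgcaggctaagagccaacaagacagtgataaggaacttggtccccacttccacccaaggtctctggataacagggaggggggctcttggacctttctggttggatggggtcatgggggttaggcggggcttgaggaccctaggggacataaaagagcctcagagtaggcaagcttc
Cela1, chr15:100687921-100688170, reverse strand: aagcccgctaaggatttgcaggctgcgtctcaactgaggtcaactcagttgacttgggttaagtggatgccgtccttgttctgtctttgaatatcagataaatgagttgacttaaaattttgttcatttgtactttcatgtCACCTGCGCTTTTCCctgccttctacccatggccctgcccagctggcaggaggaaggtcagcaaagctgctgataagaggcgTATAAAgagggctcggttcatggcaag
For the endocrine side the same stretch of Ins1 is shown, with the E box GCCATCTG in capitals from 86 to 79 bases before the start. That box was in 1 of the 7 islet hormone genes with a promoter in the table and in 1.11% of all promoters, with both strands searched. Ins2 is the hormone gene without a promoter there, so it was not searched for the box.
Ins1, chr19:52264047-52264296, forward strand: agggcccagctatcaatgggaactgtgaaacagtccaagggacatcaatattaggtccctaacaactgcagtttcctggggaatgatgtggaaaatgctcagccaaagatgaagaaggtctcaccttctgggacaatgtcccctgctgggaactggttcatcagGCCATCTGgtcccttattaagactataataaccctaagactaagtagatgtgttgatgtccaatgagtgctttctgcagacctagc

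The kallikreins, serine proteases that exocrine glands secrete, followed the same order more steeply. The list was written after their values had been seen. Of 13 listed, 11 were kept, and all 11 had replicate 3 highest, against 38.5% of all genes, and replicate 1 lowest, against 27.9%. This held for all 11 under every scaling, background correction and probe choice run, and for the 9 that the stricter filter kept. Klk1 had 4.98, 6.12, 7.29 and 6.10 (SD 0.94), and Klk1b8 had 3.82, 4.95, 6.38 and 5.05 (SD 1.05). Their genes are close copies, but of 55 pairs of their probes only 2 shared a run of 20 bases or more, the longest being 28 bases. The summed kallikrein signal was 208, 418, 959 and 433, a 4.62-fold range, against 2.18-fold for the acinar list.

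Of the genes at a level of 3 or above, the 15 with the largest SDs had the same order throughout, with SDs from 0.93 to 1.12. Phospholipase A2 of pancreatic juice (Pla2g1b) had 2.73, 3.58, 5.42 and 4.02, a 6.44-fold range. Pancreatic ribonuclease (Rnase1) had 5.26, 6.29, 7.83 and 6.35, the trypsin inhibitor Spink3 had 5.04, 6.06, 7.52 and 5.88, and the regenerating lectin Reg3d had 2.31, 3.26, 4.99 and 3.36. The others included the lipase Pnliprp2, the zymogen granule protein Cuzd1, the trefoil peptide Tff2, the serpin Serpini2 and 5 kallikreins. Cytosolic ribosomal protein genes leaned the same way by a smaller amount, with 31 of 35 highest on replicate 3, against 38.5% of all genes, and a median SD of 0.26. Their order changed with the scaling. After median scaling 14 were highest on replicate 3, against 22.9% of all genes, and 21 on replicate 2, against 42.1%.

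**Figure D4:**
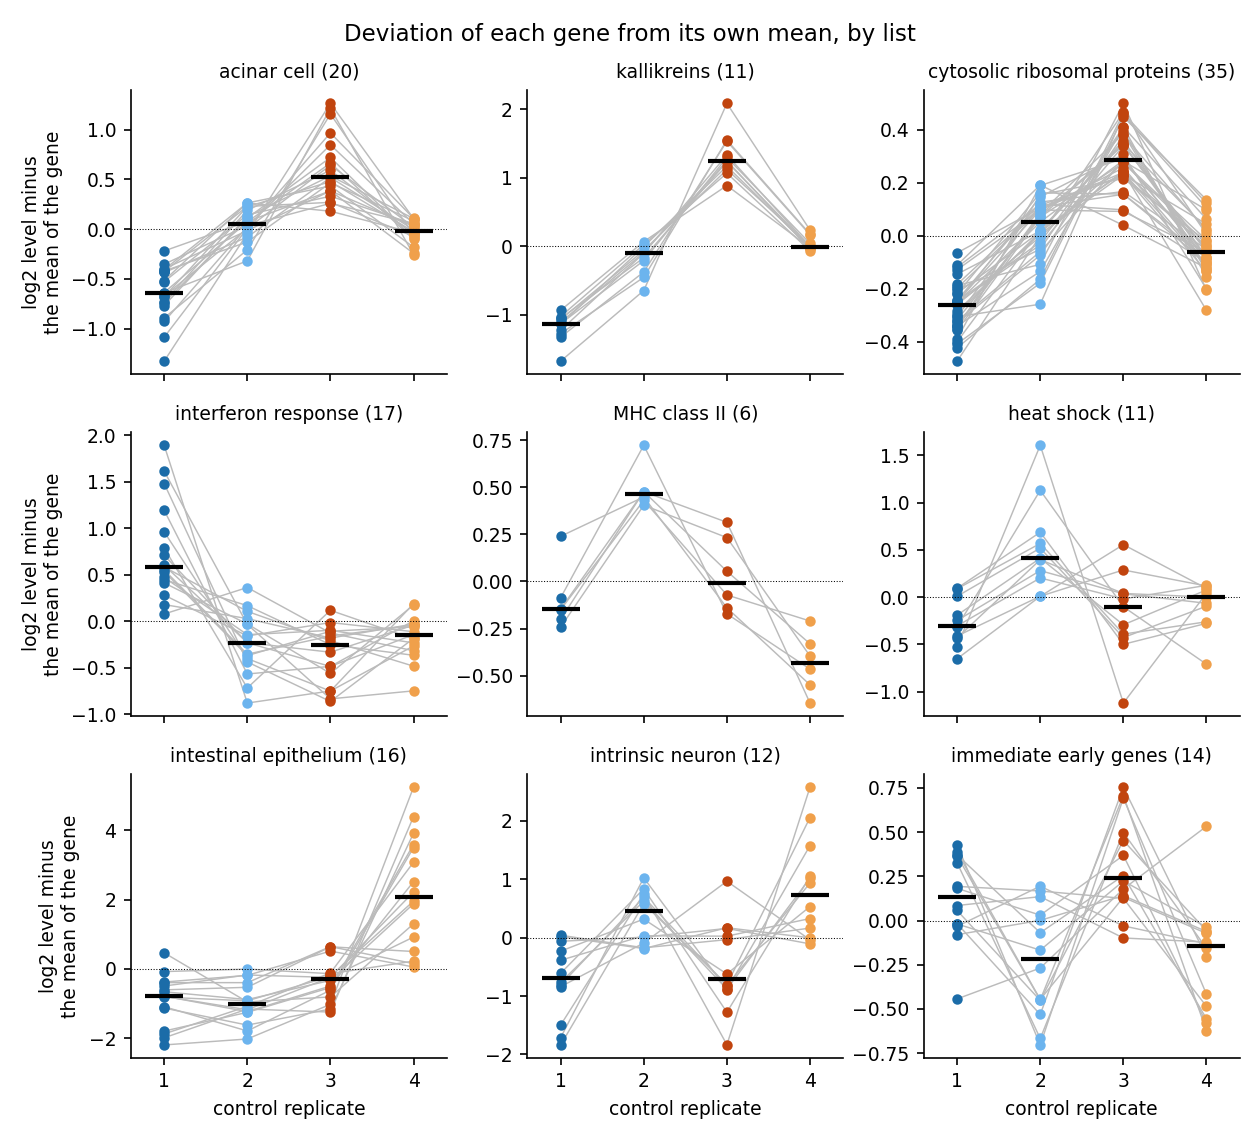
Log2 level of each gene minus its own mean over the 4 control arrays, for 9 lists (members kept in brackets). Each dot is a gene on an array, grey lines join the dots of a gene and black bars are medians. Replicate 3 is high for acinar genes and kallikreins, replicate 1 for the interferon list, replicate 2 for MHC class II and heat shock genes and replicate 4 for intestinal genes.

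The largest spreads of all lay in genes of the gut lining, in replicate 4. Fabp2, the intestinal fatty acid binding protein, had -4.79, -4.62, -3.62 and 2.65 (SD 3.53), a 173-fold range. The apolipoprotein Apoc2 had -3.41, -3.90, -3.43 and 1.64, and the goblet cell protein Fcgbp had -4.26, -3.43, -3.52 and 2.12. For these genes replicates 1 to 3 were close to the lower edge of the genes kept and replicate 4 was well into the middle of the range. A list of intestinal epithelium genes was written after these values had been seen. Of its 25 members 16 were kept, with a median SD of 1.43, and 11 of the 16 had an SD of 1 or above, against 2.03% of all genes. Replicate 4 was highest in 13 of the 16, against 17.3% of all genes, and in 12 or 13 under each scaling and background correction.

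Of the 9 members left out, several were far brighter on replicate 4 than on the others. The keratin Krt20 had -6.79, -6.47, -5.76 and 1.18, and lactase (Lct) had -5.86, -7.06, -5.44 and 0.77, each well above background on 1 array. The trefoil peptide Tff3 of goblet cells had -5.25, -5.35, -4.56 and 2.32. The summed signal of the list was 20.5, 20.7, 28.7 and 52.7. With replicate 4 left out, the median SD of the list was 0.47. Some high-fat arrays were high for the same genes. Fabp2 had -4.74, 4.23, -4.43 and 4.4 on the high-fat replicates 1 to 4, and Fabp1 had -6.99, 3.52, -5.04 and 3.55. The gut hormone secretin (Sct), made by enteroendocrine cells, had -2.55, -3.00, -2.26 and 0.76 on the control arrays. Where these signals came from was not tested.

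Genes of nerve cells were higher on replicates 2 and 4. Of 14 listed after values had been seen, 12 were kept, and in 8 of these both replicates 2 and 4 were above both replicates 1 and 3, against 10.1% of all genes. Vasoactive intestinal peptide (Vip) had -1.20, 1.23, -0.16 and 2.70 (SD 1.69). Gastrin-releasing peptide (Grp) had -2.97, -0.72, -3.31 and 1.11, and the substance P precursor Tac1 had -3.60, -0.86, -2.78 and -0.31. The neuronal stathmin Stmn2 had the same split, as did the neurofilament gene Nefl of the nerve list. The count was 7 or 8 of 12 under each scaling and background correction. Tyrosine hydroxylase (Th), which islet cells also make, did not, at 2.24, 2.31, 2.46 and 2.19.

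The opposite split, with replicates 1 and 3 above replicates 2 and 4, was seen in platelet genes and in early-response genes. It held in 14.2% of all genes. The platelet chemokines Ppbp and Pf4 had 1.21, -2.85, 0.49 and -2.86, and 1.57, -1.66, 0.87 and -1.77. Of 12 platelet genes listed after values had been seen, 8 were kept and 5 of the 8 had the split. Of 20 immediate early genes 14 were kept, and 9 of the 14 had it. The growth response factor Egr1 had 3.16, 2.02, 3.42 and 2.31, and Fos had 2.73, 1.73, 2.90 and 2.24. In the clock list the repressors Nr1d1 (-1.30, -3.43, -1.94 and -3.25) and Nr1d2 and the activators Dbp and Tef had it too, 6 of 15 in all. Under the other scalings and background correction the counts were 6 to 9 for early-response genes, 5 or 6 for clock genes and 5 or 6 for platelet genes, with 3 of the 7 platelet genes that the deposited table holds. These pairs of replicates are also the pairs that share an array position, so position and sample cannot be told apart.

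Macrophage genes split in more than 1 way. Marco, a scavenger receptor of spleen and peritoneal macrophages, had 3.54, 5.09, 1.00 and 1.81 (SD 1.82), so both arrays of the first slide were above both of the second. The lectin Cd209b had -0.72, -0.64, -4.78 and -3.67. The chemokine Cxcl13 (-0.02, -3.04, 0.41 and -3.93) and the resistin-like Retnla (-0.26, -3.07, 0.12 and -3.85) had replicates 1 and 3 high instead. Of 10 such genes listed after values had been seen, 9 were kept, and all 9 had an SD of 1 or above, against 2.03% of all genes, as members were picked for their spread. Of the 13 general macrophage markers, 9 were highest on replicate 2, against 20.4% of all genes, and none had an SD of 1 or above. The integrin Itgam of that list was steadier, at 3.46, 3.07, 3.68 and 3.62.

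Replicate 2 was also high for antigen presentation and heat shock genes. All 6 MHC class II genes kept were highest on replicate 2 and lowest on replicate 4, against 20.4% and 20.2% of all genes, under every setting run. H2-Aa had 1.01, 1.81, 0.92 and 0.63, and the invariant chain Cd74 had 2.62, 3.20, 2.70 and 2.56. With replicate 2 left out, the median SD of the MHC class II list fell from 0.41 to 0.26. Of 11 heat shock genes kept, 9 were highest on replicate 2, against 20.4% of all genes. Under the other settings 8 to 10 were, where the share of all genes ran from 19.7% to 42.1%. The inducible chaperone Hspa1a had -0.39, 1.74, -0.99 and 0.18, and its partner Dnajb1 had 3.55, 5.0, 3.77 and 3.16. The constitutive chaperone Hspa8 was highest on replicate 3 instead, at 6.14, 6.56, 6.84 and 6.67.

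Replicate 1 stood apart in the interferon response. Of 18 genes listed 17 were kept, and 16 of the 17 were highest on replicate 1, against 23.7% of all genes. Under the other settings that kept all 17, the count was 14 to 16. Ifit3, an antiviral protein, had 0.50, -2.27, -2.14 and -1.65 (SD 1.29), a 6.82-fold range. The chemokine Cxcl10 had 0.62, -1.03, -1.83 and -1.74, and the regulator Irf7 had -1.14, -3.06, -3.48 and -2.80. The summed signal of the list was 19.6 in replicate 1 and 10.02 to 11.1 in the others. With replicate 1 left out, the median SD of the list fell from 0.42 to 0.28, against 0.22 for all genes. Acute phase genes did not share this pattern, since 1 of the 10 kept was highest on replicate 1.

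**Figure D5:**
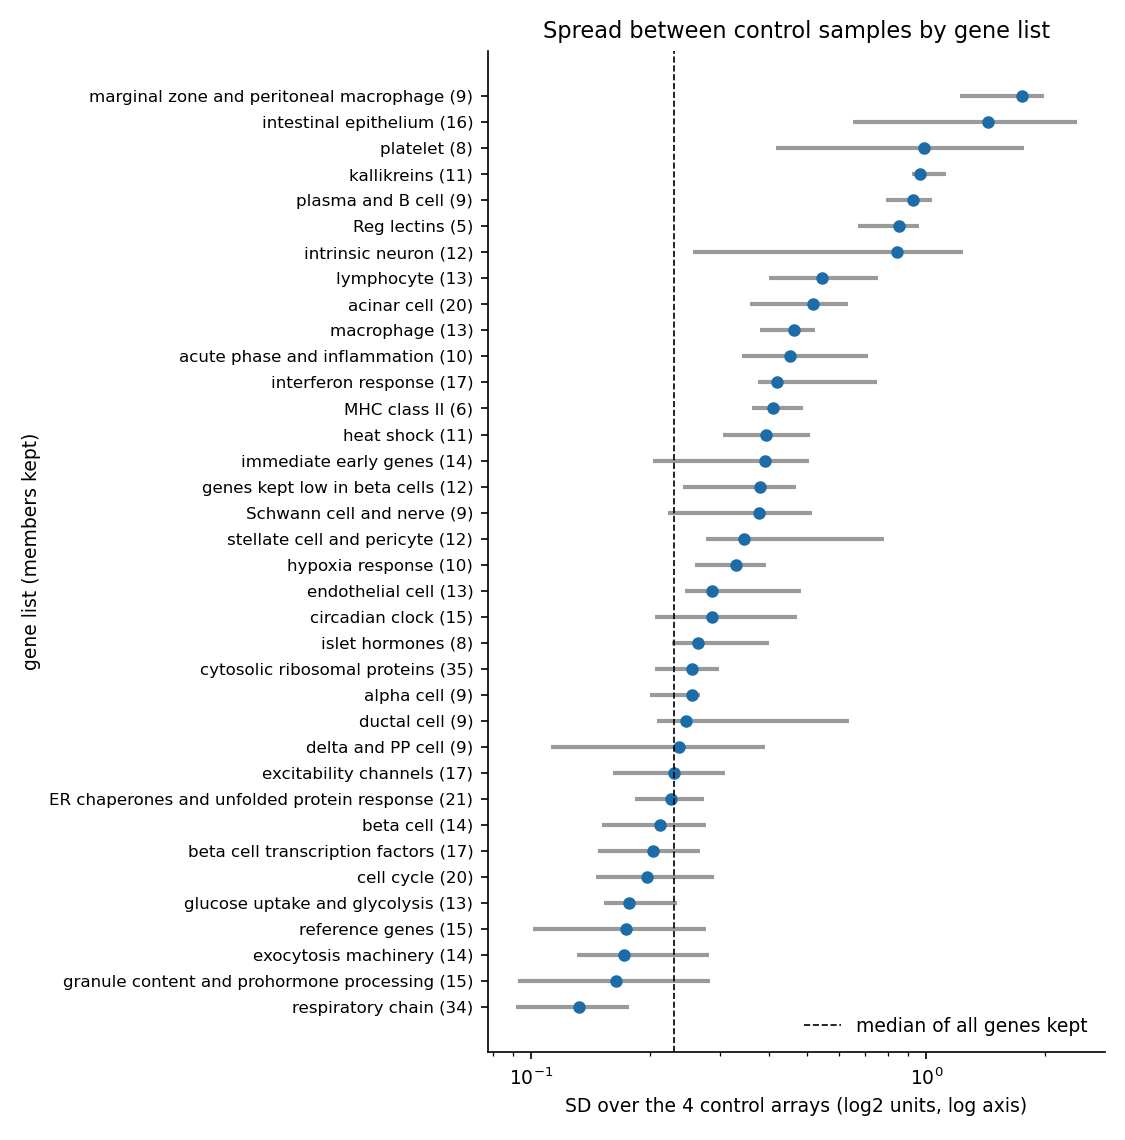
Median SD over the 4 control arrays of the members kept in each list of at least 5 kept genes (dots, with the middle part of the members as bars from the lower to the upper quartile), on a log axis. The dashed line is the median of all genes, 0.23. At the 75th percentile scaling used, respiratory chain, granule and exocytosis lists lie to its left. Lists of gut, platelet, macrophage and nerve genes lie to its right. Of these, the intestinal epithelium, platelet, marginal zone and peritoneal macrophage and intrinsic neuron lists were written after values had been seen.

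Connective tissue, vessel and lymphoid genes also differed between samples. Lumican (Lum), a collagen-binding proteoglycan, had -2.05, -1.39, -3.62 and -0.17, and decorin (Dcn) had 1.59, 1.94, 0.08 and 2.34, both with replicates 2 and 4 above replicates 1 and 3. Of the 12 stellate cell and pericyte genes kept, 8 were highest on replicate 4, against 17.3% of all genes, but 3 after median scaling, against 10.2%. Of the 13 endothelial genes, 9 were lowest on replicate 4, against 20.2% of all genes, and 8 or 9 were under each other scaling. The lambda light chain gene Iglv1, read in antibody-making cells, had 0.22, 0.84, -1.16 and -3.63, and the joining chain Igj had 0.76, 2.32, 0.06 and 0.22. The B cell surface gene Ms4a1 (CD20) had -0.98, -1.69, -0.36 and -2.97. Of the 9 plasma and B cell genes kept from a list written after values had been seen, 8 were lowest on replicate 4, Igj being the exception, and 7 or 8 were under each scaling and background correction. Of these 9, 6 were highest on replicate 3 and 3, with Iglv1 and Igj among them, on replicate 2. In 5 of the 9 both replicates 1 and 3 were above both replicates 2 and 4, against 14.2% of all genes.

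Genes of protein folding in the endoplasmic reticulum were brighter than the typical gene and varied about as much. Of 22 listed 21 were kept, at a median level of 3.77 and a median SD of 0.23, against 0.23 for all genes and 0.19 for the brightest of 10 equal groups. The median SD of the list was 0.30 against 0.25 for all genes after median scaling, and 0.23 against 0.11 in the deposited value table. Replicate 2 was above replicate 1 in 21 of 21, against 50.6% of all genes. It was the highest sample in 12 of 21, against 20.4% of all genes. Under the other settings the count ran from 8 in the deposited value table, against 22.3% of all genes, to 17 after median scaling, against 42.1%. The disulfide isomerase Pdia6 had 6.59, 7.13, 6.91 and 6.96, and the chaperone Hspa5 (BiP) had 6.22, 6.51, 6.57 and 6.45. The stress factor Atf4, which acts when translation is slowed, had 1.69, 2.07, 1.30 and 1.07 (SD 0.44). Metallothionein 1 (Mt1), which binds zinc, had 6.47, 6.23, 6.90 and 6.43 (SD 0.29). Of the 15 reference genes none had an SD of 0.5 or above. Beta-2-microglobulin (B2m) was steady, at 3.28, 3.36, 3.32 and 3.33 (SD 0.033), while cyclophilin A (Ppia) had 6.78, 7.08, 7.30 and 6.86 (SD 0.23).

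Cell cycle genes were dim in the control samples, and their spread against that of all genes moved with the scaling. Of 24 listed 20 were kept, at a median level of -2.15 and a median SD of 0.20, against 0.23 for all genes. The median SD of the list was 0.27 against 0.25 after median scaling and 0.26 against 0.22 after quantile normalization. It was 0.16 against 0.20 under normexp and 0.06 against 0.11 in the deposited value table. The proliferation marker Mki67 had -1.29, -0.78, -1.51 and -1.38, and Ccnb1 had -3.16, -3.23, -3.51 and -3.09. Over the high-fat arrays the median SD of the same genes was 0.83. For the acinar list it was 0.41 there and 0.52 in the control samples, and for the interferon list 0.41 and 0.42. For MHC class II genes it was 0.49 and 0.41, and for intestinal genes 1.91 and 1.43. Genes that varied in the control samples also tended to be those that varied in the high-fat samples. Of the 372 genes with an SD of 1 or above in the control samples, 104 (28.0%) also had one in the high-fat samples, where 1.69% of all genes did. Those 104 were 33.5% of the 310 such genes in the high-fat samples. Dim genes varied more in the control samples, and these shares were not matched for level.

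The 372 genes with an SD of 1 or above had a median level of -2.39. Of these, 251 were highest on replicate 3, 66 on replicate 4, 39 on replicate 2 and 16 on replicate 1. The shares of all genes were 38.5%, 17.3%, 20.4% and 23.7% in that order. Replicate 1 was lowest in 230 of the 372, against 27.9% of all genes. Where such a gene had a second kept probe, that probe had an SD of 0.5 or above in 23 of 35 genes, against 10.4% of all second probes. The 2 probes were highest on the same array in 25 of the 35, against 43.3% of all genes with a second probe. Of all summed squares around the gene means, 54.7% lay between slides, which hold 33.3% of the degrees of freedom. By array, where even shares would be 25%, replicate 3 held 36.7%, replicate 1 25.2%, replicate 2 20.3% and replicate 4 17.7%.

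The arrays fall into 2 against 2 by slide and, across the slides, by array position. For slides, in limma with Benjamini-Hochberg adjustment over 18363 genes, 0 (0%) passed an adjusted p of 0.05, and the smallest adjusted p was 0.119. Without adjustment 3102 genes (16.9%) had a p under 0.05, of which 2471 (13.5%) were higher and 631 (3.44%) lower on the second slide. Both arrays of the second slide were above both of the first in 29.3% of genes, and the reverse held in 20.7%. Among the 6 genes named in each direction, the leptin receptor Lepr of the delta and PP cell list had 2.06, 2.12, 3.69 and 3.84, a difference of 1.68 (SE 0.16, limma adjusted p = 0.119). The macrophage lectin Cd209b had a difference of -3.55 (SE 0.38, limma adjusted p = 0.119). Both genes had no overlap between slides and missed the threshold. For array position, compared after the data had been seen, limma also called 0 genes (0%), with a smallest adjusted p of 0.911, and 395 genes (2.15%) had an unadjusted p under 0.05. With position as a block in the fit of slide the count of calls stayed at 0 and the smallest adjusted p was 0.212. The balance of higher and lower genes turned with the scaling. The median difference of all genes was 0.037 here and -0.18 after median scaling, where 1349 genes with an unadjusted p under 0.05 were higher and 2308 lower. Slide, scan and the animals on each slide cannot be told apart.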

How the data were processed

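Scanner files were made with Agilent Feature Extraction 11.5.1.1, per the file headers, and hold a background-corrected signal per spot, an intensity that is used as the authors deposited it. The deposited value table holds log2 values; the submitters' processing notes name limma without a version, and its further steps are not given in the sources used here. Control spots and 125 to 205 outlier spots per array were left out, log2 signals were taken relative to the 75th percentile of all non-control spots of the array, spots of a probe were averaged, and 23832 probes well above background on all 4 control arrays were kept. Of the 18363 gene names kept, 14971 are in the RefSeq table (GRCm38.p6). Probe positions are on mm9, from the scanner files. Slides were compared by lmFit and eBayes of limma 3.58.1, run in R 4.3.3. On simulated data for 18363 genes with 2 arrays against 2, it recovered 36 of 100 genes shifted by 1 and 99 of 100 shifted by 2 (log2), with 12 false calls. The simulated noise was normal, independent between genes and drawn with the fitted SDs. These counts therefore do not say how many shifts of that size would be found on the real arrays. The members and the 34 hand-written lists were chosen with earlier results of these data known, and 7 further lists after the values here had been seen, so list counts are descriptions. A list sum adds the linear levels of its kept members. Genes were named by rule: 6 markers, the 25 brightest, the 25 most variable, the 15 most and 10 least variable at a level of 3 or above, up to 4 bright and 2 variable members per list, and 6 per direction for the slide; members of the 7 lists and genes with shared probe runs were named after their values were seen. Each step was also varied: background by normexp (offset of 50), median or quantile scaling, the deposited table, no filter or a level of at least -2, the mean of a gene's probes, outlier spots kept, a trended and robust eBayes, slide as a block and each replicate left out. Tables and figures used Python, pandas, numpy and matplotlib.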

Additional observations from a re-analysis of the deposited data

Results flagged for a closer look

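In 112 named genes and 41 list sums, the sample farthest from the others was checked by Dixon's test at the 95% level, and 8 were found. Over all 18363 genes it found 839 (4.57%), and chance gives about 1 in 20, so the number found is near what chance gives. Fabp2, Fcgbp and Apoc2 had also been named for their large spread. Replicate 4 was the sample apart, above the other 3, for Fabp2 at 2.65 (the others at most -3.62), Fcgbp at 2.12 (at most -3.43) and Apoc2 at 1.64 (at most -3.41). Replicate 3 was apart below for Pax6 at 1.20 (the others 1.98 to 2.10) and above for the histone gene Hist1h3d at 3.62 (the others 3.56 to 3.57), a gene picked for its small spread. Replicate 3 was also apart above for the sum of the 2 adipocyte genes kept, Fabp4 and Adig, at 6.22 (the others 2.16 to 2.81). Replicate 1 was apart above for the sum of the beta cell transcription factors at 112.2 (the others 98.7 to 100.8) and for that of the interferon list at 19.6 (the others 10.02 to 11.1).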

How the results depend on the processing

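Median SD, genes kept, shared brightest genes and the slide count were recomputed under every alternative, and 2 were added after seeing the data: leaving out genes whose probe holds a shared base run (76 of the 100 brightest shared, against 75) and array position as a block in the slide fit (0 calls). The median SD was 0.23 here and 0.11 in the deposited value table; the cause was not tested. Elsewhere it ran from 0.18 within slides to 0.27 without the filter. The genes kept rose from 18363 to 29973 without the filter on dim probes, as that setting keeps dim genes, and otherwise ran from 12246 to 19039. Shared brightest genes ran from 74 to 82. Slide calls were 0 here and from 0 to 1 with each replicate left out in turn, the 1 call being without replicate 3, where 1 slide has a single array that is assumed to vary like those of the other. The SD of the 276 named genes moved by over 1.5 times in 144 of 275 in the deposited table, 64 of 276 under normexp and 62 of 276 under quantile normalization. No paired analysis was possible because 1 labelled group is described, so no replicate number recurs between groups compared. Dim genes lie nearer to background, and the dimmest of 10 equal groups had a median SD of 0.39. What sets that spread was not tested.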
